A study of Mus musculus with 18 samples.

Results

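The JAK2-STAT5 pathway carries the prolactin signal in the mammary gland. Prolactin binds its receptor, the receptor-bound kinase JAK2 phosphorylates STAT5A and STAT5B, and the paired STAT5 molecules enter the nucleus and bind the promoters of milk protein and other genes. STAT3, a related factor that answers mainly to cytokines of the interleukin-6 family, is best known in this tissue for its part in involution after weaning. Among the genes that STAT factors switch on are the suppressors of cytokine signalling, CISH, SOCS1, SOCS2 and SOCS3, which bind receptors or kinases and damp the signal that induced them.

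Of the 31053 gene features in the count tables, 8 genes of this pathway were followed: Stat5a, Stat5b, Stat3 and Jak2 on the signalling side, and Cish, Socs1, Socs2 and Socs3 on the feedback side. They were taken as a list and not by a cut on their values, though earlier results of these data were known. Each was read as raw counts of unique molecular identifiers (UMIs, each standing for 1 captured RNA molecule), summed per library and cell class, and given per 1000000 UMIs outside the milk genes (CPM). The 8 genes that were left out of this denominator were the 5 caseins, Wap, Lalba and Glycam1.

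The study profiled single cells of the female mouse mammary gland through development with droplet 3′ RNA sequencing, using cells depleted of blood and endothelial cells and sorted on CD24 and CD29. Of 18 libraries, 17 were mammary. The C57BL/6 libraries were 1 each of E18.5 mammary rudiment (embryos with the Lgr5-GFP allele, rudiments located by GFP), postnatal day 5, pre-puberty at 2.5 weeks, terminal end bud and duct at 5 weeks (females with the Ecadherin-GFP allele, micro-dissected by GFP) and adult virgin at 10 weeks. There was also 1 adult virgin library of the SWISS strain, at 10 weeks. The FVB/NJ libraries were 3 of adult virgin glands at 10 weeks (A10, P7 and D12), 2 of pregnancy day 12.5 (H and G), 2 of day 18.5 (F4 and B4), 2 of lactation at 10 days (F11 and D6) and 1 of the post-involution gland, 3 weeks after birth by its label. The study's text counts the post-involution time in part from weaning and is not uniform on the day of lactation, so the labels' times are used. Each library pooled glands of several mice, adult virgins were not staged for the estrous cycle, and the skin library of E18.5 was not analysed here. The labels do not tie replicate libraries to separate litters or days, so p-values measure the spread between these libraries, which may in part be technical.

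After the study's own cell filters 123574 of 140187 mammary barcodes were kept. Libraries held 9920346 to 93234616 UMIs, with a median of 2498 to 21609 UMIs per kept cell. The adult library P7 stood apart, with the lowest total and median, barcodes of 14 bases where the others had 16, and in basal cells the highest summed level of 13 genes that tissue dissociation induces. The lactation libraries kept 48.6% (F11) and 68.9% (D6) of their barcodes, against 86.2% or more elsewhere. Of 118638 distinct barcodes, 4797 (4.04%) occurred in more than 1 mammary library. Cells were placed in basal, luminal progenitor or alveolar (LP/alveolar) and mature luminal (ML) classes by marker scores that used none of the 8 genes. These classes held 44976, 38330 and 19920 cells. At E18.5 61.0% of the classed cells lay near the score limit, so class values there are a range along a score, while the share elsewhere was 1.6% to 20.2%.

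The transcription factor genes lie side by side on mouse chromosome 11 (GRCm38, GENCODE vM21). Stat5b is at chr11:100780731-100850724 on the minus strand, Stat5a at chr11:100859351-100885169 on the plus strand and Stat3 at chr11:100885098-100939540 on the minus strand, within 158810 bases. Stat5b and Stat5a start 8626 bases apart and point away from each other. Stat5a and Stat3 meet at their 3′ ends, where the annotated genes overlap by 72 bases. Reads from those bases could be credited to either gene where strand is not used. The sources do not state whether counting used strand. Jak2 lies at chr19:29251828-29313080 (plus), Cish at chr9:107296026-107302784 (plus), Socs1 at chr16:10782240-10785536 (minus), Socs2 at chr10:95385362-95417180 (minus) and Socs3 at chr11:117966079-117970047 (minus).

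STAT dimers bind the letters TTCNNNGAA, which read the same on both strands, and this motif was searched in the RefSeq promoters of the 7 genes that had one (GRCm38.p6, 300 bases from 250 before each start site). Of the 7, 2 held it, Cish with 2 copies and Socs3 with 1, and both are shown because they are feedback genes. Stat5a and Stat5b had 2 promoters each, so the 7 are genes, while the shares that follow are over promoters. Over all 32851 promoters 8.30% held at least 1 copy and 0.457% held 2 or more. In Cish (chr9:107296654-107296683, plus strand) the copies begin at positions 1 and 12 counted from the start site. In Socs3 (chr11:117969492-117969540, minus strand) the copy begins at position -154. The RefSeq start sites of both genes lie inside the gene spans given above, which come from another annotation. Capitals mark the motif.
Cish: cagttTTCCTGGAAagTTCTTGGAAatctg
Socs3: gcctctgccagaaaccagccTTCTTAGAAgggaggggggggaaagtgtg
A match of letters is a description of these windows and does not show binding. The windows of Stat5a, Stat5b, Stat3, Jak2 and Socs1 held no copy. Socs2 was not searched.

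The first question was how the pathway is divided among the epithelial classes of the adult virgin gland, over 5 libraries (C57BL/6, SWISS and the 3 FVB/NJ), each with all 3 classes. Stat5a and Jak2 were highest in ML cells and Stat5b higher in both luminal classes than in basal cells, Stat3 was lowest in ML cells, and the inhibitors Socs1 and Socs3 were highest in basal cells. Between LP/alveolar and basal cells 4 of the 8 genes passed the test (1 higher, 3 lower), against 47.0% of all genes tested. Between ML and basal cells 6 passed (3 higher, 3 lower), against 60.7%, and between ML and LP/alveolar cells 5 passed (4 higher, 1 lower), against 44.5%. Nothing particular to the 8 genes is read from these counts. The test was edgeR's quasi-likelihood test with library as a block. In this and every later fit p-values were Benjamini-Hochberg adjusted over all genes, and a gene passed at an adjusted p under 0.05. The 3 class contrasts share the same sums.

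Stat5a, which encodes the main STAT5 protein of the mammary epithelium, was highest in ML cells of every adult library. In ML cells it stood at 111 CPM in C57BL/6, 64.5 in SWISS, and 89.8, 78.6 and 64.8 in A10, P7 and D12. LP/alveolar cells held 40.2, 36.3, 38.2, 31.1 and 27.2 CPM in the same order, and basal cells 52.9, 21.9, 29, 21.1 and 39.2. The ML values did not overlap those of either other class, whereas the basal and LP/alveolar values did overlap. The ML level of 81.7 ± 19.3 CPM (SD, n = 5) was 2.31-fold that of LP/alveolar cells (log2 difference 1.21, SE 0.18, adjusted p = 0.000154) and 2.52-fold that of basal cells (1.33, SE 0.18, adjusted p = 3.38e-05). LP/alveolar and basal cells differed by 0.13 on the log2 scale, which did not pass.

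Stat5b, its close paralog, was divided another way. The mean of basal cells was 10.1 ± 5.43 CPM, that of LP/alveolar cells 23.1 ± 9.15 and that of ML cells 19.8 ± 6.53 (n = 5). It was lower in basal cells than in LP/alveolar cells in all 5 libraries, from 10.8 against 14.1 CPM in D12 to 4.07 against 20.9 in P7. Both luminal classes were above basal cells (LP/alveolar 2.27-fold, log2 difference 1.18, SE 0.20, adjusted p = 0.000256, and ML 0.98, SE 0.19, adjusted p = 0.000687). The ML difference did not pass without the library block (0.96, adjusted p = 0.0603). Stat5b did not pass between the 2 luminal classes (-0.20).

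Jak2, the kinase at the prolactin and growth hormone receptors, was highest in ML cells of all 5 libraries, at 51.3, 22.1, 28.6, 11.6 and 19.5 CPM. It stood at 16.2, 13.2, 7.94, 6.04 and 6.60 CPM in LP/alveolar cells and at 16.9, 11.2, 9.46, 5.92 and 7.40 in basal cells. The order of the libraries was nearly the same in each class, with C57BL/6 highest and P7 lowest throughout. The ML excess was 2.56-fold over basal cells (log2 difference 1.36, SE 0.17, adjusted p = 1.28e-05) and 1.39 on the log2 scale over LP/alveolar cells (SE 0.17, adjusted p = 2.73e-05).

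Stat3 went the opposite way. It was 149 ± 16.5 CPM in ML cells, against 250 ± 77.9 in basal and 255 ± 54.2 in LP/alveolar cells. The ML class was lower than basal by a log2 difference of -0.71 (SE 0.13, adjusted p = 0.000393) and lower than LP/alveolar by -0.76 (SE 0.13, adjusted p = 0.000402). The second of these had an adjusted p of 0.0506 without the library block.

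Socs1 and Socs3 were the genes most unequal between classes. Socs1, an inhibitor that binds JAK kinases directly, was 50.8, 79.9, 55.4, 128 and 35.9 CPM in basal cells. The LP/alveolar values were 10.1, 14.2, 7.21, 18.6 and 12.8 and the ML values 20.1, 10.4, 20.3, 21.8 and 17.6. No luminal value reached the lowest basal one. The LP/alveolar level was 5.35-fold lower (log2 difference -2.42, SE 0.28, adjusted p = 1.23e-05) and the ML difference was -1.82 (SE 0.27, adjusted p = 6.85e-05).

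Socs3, which acts mostly on receptors that signal through STAT3, was 1105, 206, 702, 4403 and 621 CPM in basal cells, 467, 160, 264, 1042 and 170 in ML cells, and 233, 30.0, 115, 376 and 116 in LP/alveolar cells. Within every library the order was basal, then ML, then LP/alveolar, although the basal values alone ranged from 206 CPM in SWISS to 4403 in P7. The LP/alveolar level was 6.56-fold below basal (log2 difference -2.71, SE 0.26, adjusted p = 1.96e-06), and -2.49 without P7 (adjusted p = 3.13e-05). ML cells were below basal (-1.38, SE 0.25, adjusted p = 0.000308) and above LP/alveolar cells (1.34, SE 0.25, adjusted p = 0.000701). Without the library block the 2 ML differences did not pass (-1.74, adjusted p = 0.109, and 1.27, adjusted p = 0.327). In basal cells of the adult FVB/NJ libraries the dissociation list summed to 8552 to 35540 CPM. P7 was highest in both the list and Socs3, while A10 had the lowest sum and more Socs3 than D12. The part of the list in the Socs3 values was not tested.

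Socs2, a feedback gene of growth hormone and prolactin signalling, was lower in LP/alveolar cells than in basal cells (29.4 ± 10.2 against 65.6 ± 24.0 CPM, log2 difference -1.16, SE 0.25, adjusted p = 0.00186). ML cells, at 55.1 ± 13.4 CPM, were above LP/alveolar cells (0.98, SE 0.25, adjusted p = 0.00628), a call lost without the block (0.91, adjusted p = 0.0611). Against basal cells the ML difference was -0.18 and did not pass. It passed without SWISS (-0.56, adjusted p = 0.00815) and turned to 0.03 without C57BL/6. Cish, the classical early STAT5 target, went from 62.5 ± 26.2 CPM (basal) over 46.6 ± 12.1 (LP/alveolar) to 37.8 ± 12 (ML), and none of its class contrasts passed. The ML against basal contrast (-0.61, adjusted p = 0.0723) passed when SWISS was left out (-0.89, adjusted p = 0.0117), as did Socs1 between ML and LP/alveolar cells (0.60, adjusted p = 0.0976, and 0.85, adjusted p = 0.0183, without SWISS).

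**Figure D1:**
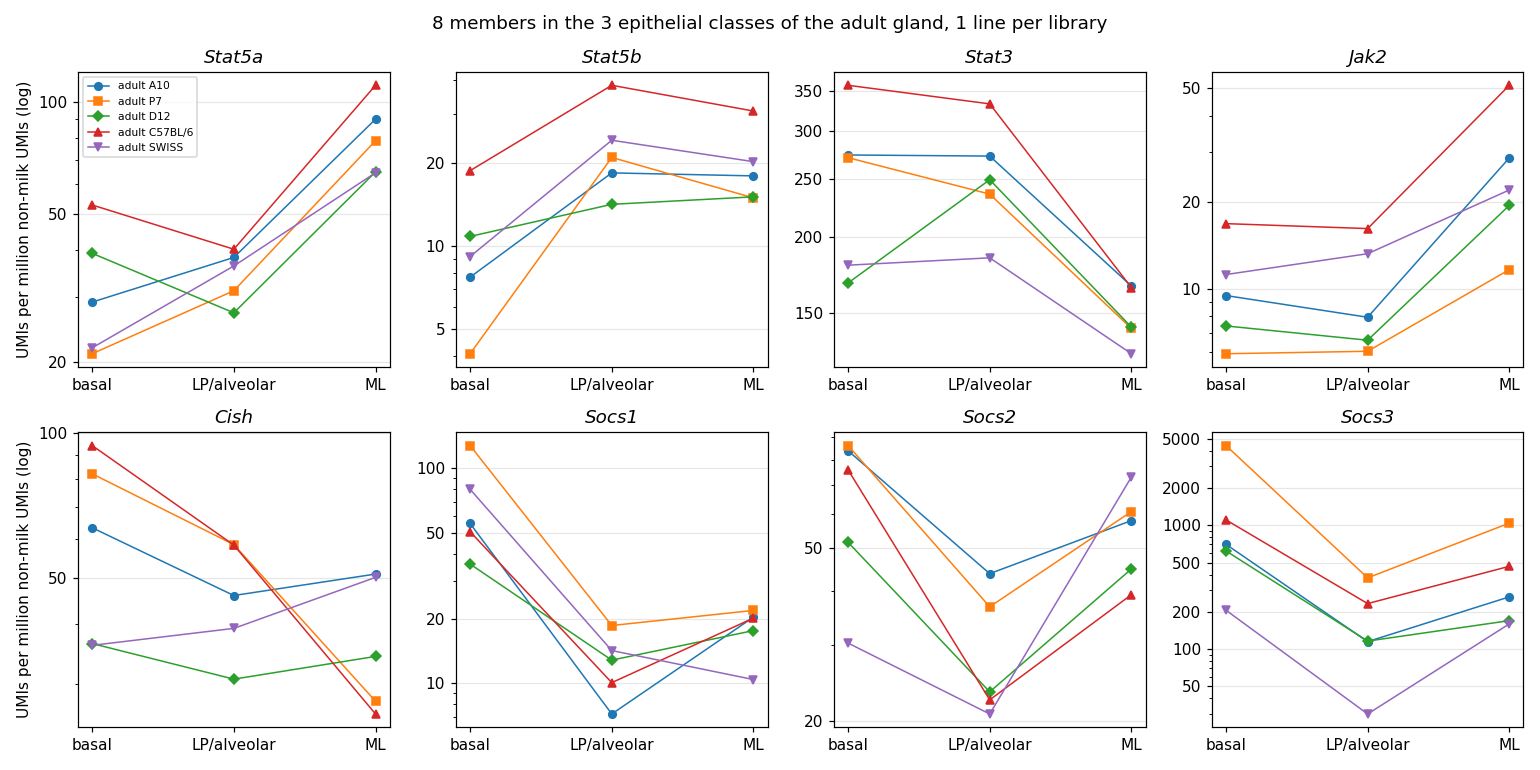
Level of each of the 8 genes (CPM, UMIs per 1000000 outside the milk genes, log axis) in basal, LP/alveolar and ML cells of the 5 adult libraries, with 1 line per library. Stat5a and Jak2 rise to the ML class in all 5 libraries, while Socs1 and Socs3 are highest in the basal class in all 5.

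The second question was how the genes move through pregnancy and lactation. The 9 FVB/NJ libraries of adult, day 12.5, day 18.5 and lactation were compared by the same test without a block, in 1 fit per class, each stage with the one before it, so neighbouring contrasts share a stage. In LP/alveolar cells the share of UMIs from the 8 milk genes was 0.218% to 4.06% in adults, 14.5% and 15.4% at day 12.5, 34.9% and 35.9% at day 18.5, and 76.8% and 78.0% in lactation. The class held few alveolar cells in adults (196 in A10 and 26 in P7, with 2279 and 665 LP cells) and mostly alveolar cells at day 18.5 (5590 in F4 and 2232 in B4, with 221 and 119 LP cells). Stage, library preparation and run cannot be told apart for pregnancy and lactation.

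In LP/alveolar cells 2 of the 8 genes passed between adult and day 12.5 (1 higher, 1 lower), against 11.5% of all genes tested, and the median of the 8 was -0.06, beside -0.05 over all genes. Stat5a rose. It stood at 38.2, 31.1 and 27.2 CPM in the adult libraries and at 70.5 and 75 at day 12.5, a 2.25-fold increase (log2 difference 1.17, SE 0.30, adjusted p = 0.0315). Levels then were 88.6 and 89.0 CPM at day 18.5, 43.8 and 62.7 in lactation and 37.4 in the post-involution library. All 4 pregnancy values lay above every adult, lactation and post-involution value. The later steps did not pass (0.29 to day 18.5, and -0.74 with SE 0.33 and adjusted p = 0.27 to lactation). The rise to day 12.5 lost its call without adult D12 (1.06, adjusted p = 0.0801), without H (1.22, adjusted p = 0.238), without G (1.13, adjusted p = 0.263), without F4 or B4 (1.17, adjusted p = 0.0644 in each case), and with library sizes that include the milk genes (0.97, adjusted p = 0.0538).

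Stat5b ran parallel at a lower level, with 18.4, 20.9 and 14.1 CPM in adults, 32.7 and 32.8 at day 12.5, 35.4 and 44.0 at day 18.5, and 19.2 and 22.7 in lactation. The adult and pregnancy values did not overlap. Its step to day 12.5 did not pass (0.89, SE 0.28, adjusted p = 0.069), though it did without P7 (adjusted p = 0.0211) and by DESeq2 (adjusted p = 0.0298). Its step to lactation (-0.92, SE 0.31, adjusted p = 0.15) passed without P7 (adjusted p = 0.0371), in alveolar cells alone (-0.90, adjusted p = 0.0198) and with milk genes in the library sizes (-2.44, adjusted p = 0.00103). The single post-involution value was 18.3 CPM, among the adult ones.

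Within the class the LP and the alveolar cells were also read apart. In adult A10, the adult library with most alveolar cells (196), Stat5a was 36.4 CPM in the LP part and 64.3 in the alveolar part (57 UMIs, 95% exact Poisson interval 48.7 to 83.4), the latter nearer to the day 12.5 alveolar values than the class as a whole. The alveolar parts of P7, C57BL/6 and SWISS held 1 to 7 Stat5a UMIs. With so few adult alveolar cells the step within alveolar cells was not tested, and the part that the mix of LP and alveolar cells has in the 2.25-fold rise of the class was not tested. Stat5a was 63.2 and 62.6 CPM in the LP part at day 12.5 against 73.2 and 79.5 in the alveolar part, 66.0 and 56.9 against 89.4 and 90.9 at day 18.5, and 17.7 and 13.1 against 46.0 and 63.2 in lactation. In all 6 pregnancy and lactation libraries the alveolar part was higher. The LP part of D6 held 25 cells only.

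Socs3 fell in LP/alveolar cells by day 12.5, from 115, 376 and 116 CPM to 32.8 and 38.2, which is 5.69-fold lower (log2 difference -2.51, SE 0.58, adjusted p = 0.0227). Without P7 the difference was -1.70 (adjusted p = 0.006). It lost its call without H (-2.40, adjusted p = 0.223) or G (-2.62, adjusted p = 0.186). At day 18.5 Socs3 stood at 144 and 90.1 CPM, in lactation at 91.1 and 84.7, and in the post-involution library at 153. The step to day 18.5 did not pass (1.72, SE 0.58, adjusted p = 0.191) but did so without P7 (adjusted p = 0.0156), by DESeq2 (adjusted p = 0.023), without the low-count filter (adjusted p = 0.0184) and in alveolar cells alone (1.70, adjusted p = 0.00981). The summed dissociation list in this class was 11193 to 28060 CPM in adults, 4704 and 4732 at day 12.5, 7435 to 11747 at day 18.5 and 8931 to 9170 in lactation. Its part in the Socs3 change was not tested.

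At day 18.5 none of the 8 genes passed in LP/alveolar cells by edgeR, where 0.408% of all genes did. At an unadjusted p under 0.05 there were 2, against 2016 of 13230 genes. DESeq2 called 1, and its count over all genes is given in the last section. Cish had its highest LP/alveolar levels there, at 127 and 102 CPM, after 64.9 and 60.8 at day 12.5 and 45.9, 58.5 and 30.8 in adults. In lactation it stood at 52.4 and 81.6. The day 18.5 values exceeded those of every other library of the class, but the steps on either side did not pass (0.87, SE 0.39, adjusted p = 0.325, and -0.78, adjusted p = 0.32).

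Between day 18.5 and lactation 1 of the 8 genes passed, against 3.90% of all genes. Socs2 rose 3.99-fold in LP/alveolar cells, from 12.3 and 13.7 CPM to 44.6 and 59.3 (log2 difference 2.0, SE 0.36, adjusted p = 0.0162). The day 18.5 levels were the lowest of all 17 libraries in this class, and the lower of those in lactation lay just above the 23.4 to 43.8 CPM of the FVB/NJ adults. The median of all genes moved by -0.22 in this contrast and by -0.03 with TMM factors, under which the Socs2 difference was 2.18. With the milk genes counted in the library sizes the median moved by -1.74, and Socs2 differed by 0.48 (adjusted p = 0.222), so the rise is relative to the other non-milk RNA. The call was also lost without F4 (1.92, adjusted p = 0.178), B4 (2.08, adjusted p = 0.157), D6 (1.77, adjusted p = 0.124), H (2.0, adjusted p = 0.0509) or G (2.0, adjusted p = 0.0506).

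The other genes of the class passed in none of the 3 steps. Stat3 was 134 to 273 CPM over the FVB/NJ libraries, highest in adult A10 and lowest in D6, and Jak2 was 6.04 to 11.6 CPM. Socs1 was 7.21 to 18.6 CPM in adults, 5.78 and 6.70 at day 12.5, 4.18 and 2.01 at day 18.5, and 4.50 and 3.21 in lactation, all 6 later values being below the adult ones. In the alveolar part alone Socs1 rested on 127 UMIs in each of H and G, 99 in F4, 32 in B4, 30 in F11 and 52 in D6. The Socs1 steps of the class were -0.99, -1.0 and 0.29.

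Basal cells gave no call among the 8 genes in any step by edgeR or by DESeq2. At an unadjusted p under 0.05 there were 2 at day 12.5, 1 at day 18.5 and 0 in lactation, against 2083, 1339 and 1459 of 13605 genes. Of all genes, 2.09%, 0.00% and 1.03% passed in the 3 steps. Stat5a was 29, 21.1 and 39.2 CPM in adult basal cells and 8.62 to 16.7 in the 6 pregnancy and lactation libraries, without overlap (step to day 12.5 -0.87, SE 0.38, adjusted p = 0.29). Socs2 was 51.7 to 86.2 CPM in adults and 28.4 to 49.4 afterwards, also without overlap (-0.72, adjusted p = 0.375). Socs3 ranged from 465 CPM in F11 to 4403 in P7. It was 702 and 621 CPM in adults A10 and D12, 514 and 512 at day 12.5 and 1615 and 2259 at day 18.5. The Socs3 steps of -1.89 (SE 0.83, adjusted p = 0.30) and 1.92 (SE 0.88, adjusted p = 0.51) did not pass. The former leaned on P7, and the latter became a call when P7 was left out (adjusted p = 0.0299). The dissociation list in basal cells was 8672 to 8776 CPM at day 12.5, 19171 to 19793 at day 18.5 and 22505 to 25978 in lactation, and its part in these values was not tested. Socs1 was 35.9 to 128 CPM in adults and 43.0 to 57.2 later.

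ML cells gave the change of greatest size among the 8 genes. Socs2 stood at 57.9, 60.8 and 44.8 CPM in A10, P7 and D12 and at 660 (H) and 648 (G) at day 12.5. The increase was 12-fold (log2 difference 3.58, SE 0.46, adjusted p = 0.000496), and it was called in 15 of 15 alternatives, with log2 differences of 3.46 to 3.67. In this step 1 of the 8 genes passed, against 6.98% of all genes, and the median of the 8 was 0.80, beside -0.03 over all genes. Socs2 remained far above the adult range at day 18.5 (714 and 538 CPM) and in lactation (510 and 352 CPM). The post-involution library held 217 CPM. It lay between the adult and lactation values, with 4375 Socs2 UMIs from 3435 cells.

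Few ML cells were found in pregnancy and lactation. H and G had 168 and 208, F4 and B4 175 and 130, and F11 and D6 111 and 76. The Socs2 level rested on 494 and 585 UMIs at day 12.5, 431 and 466 at day 18.5 and 132 and 51 in lactation. Marker lists also moved in the ML sums. The ML list itself summed to 6681 to 7828 CPM in adults and 3980 to 4196 at day 12.5, the list of 4 luminal keratins to 9122 to 34529 and 2877 to 3421, and the immune list to 1.09 to 3.78 and 24.0 to 37.7. The erythroid list of 4 globin genes summed to 24.4 to 70.2 CPM in adults and 287 to 292 at day 12.5, the basal list to 119 to 1226 and 775 to 1201, and the fibroblast list to 30.0 to 1128 and 11.1 to 13.4. Fabp3, an alveolar marker, was 0 to 1.78 CPM in adult ML sums and 214 and 184 at day 12.5. In the same day 12.5 libraries Socs2 was 21.9 and 21.1 CPM in LP/alveolar and 46.3 and 43.3 CPM in basal cells, both far below the ML level. The whole alveolar list summed to 161 to 219 CPM in adult ML sums, 436 to 542 at day 12.5, 470 to 1288 at day 18.5 and 594 to 4036 in lactation. The endothelial list summed to 3.63 to 7.38, 8.86 to 10.7, 11.5 to 84.5 and 228 to 294 CPM in the same order. Endothelial cells of the lactation libraries held 98.3 (F11) and 82.8 (D6) CPM of Socs2, below the ML values. The part of these lists in the Socs2 change was not tested. Erythroid-classed cells were summed in the 4 libraries that had 20 or more of them, with Socs2 at 2.6 to 839 CPM, the highest from 56 UMIs in 21 cells of F4.

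No other member passed in ML cells. Cish stood at 50.8, 27.7 and 34.3 CPM in adults, 96.2 and 105 at day 12.5 (1.41, SE 0.40, adjusted p = 0.051), 126 and 162 at day 18.5, 65.7 and 76.0 in lactation and 52.1 after involution. The 4 pregnancy values lay above all adult ones. The step was called without A10 (1.69, adjusted p = 0.0247) and without P7 (1.24, adjusted p = 0.0143). Socs3 was 264, 1042 and 170 CPM in adults and 42.7 and 79.7 at day 12.5 (-3.00, SE 0.87, adjusted p = 0.055), a difference called without A10 (adjusted p = 0.0239), without P7 (-1.82, adjusted p = 0.0441), without D12 (adjusted p = 0.0145) and by DESeq2 (adjusted p = 0.0021). The ML dissociation list went from 7573 to 22114 CPM in adults to 3425 to 3906 at day 12.5, and its part in the Socs3 difference was not tested.

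Stat5a in ML cells was 134 and 119 CPM at day 12.5, above the adult 89.8, 78.6 and 64.8, and 41.4 and 53.1 at day 18.5, below them. Lactation held 34.8 and 62.2 and the post-involution library 37.3. The step to day 18.5 (-1.41, SE 0.46, adjusted p = 0.485) did not pass. No member passed in the later 2 steps by edgeR or DESeq2, and 0.00% of all genes passed in each. An unadjusted p under 0.05 was reached by 1 and 0 members, against 569 and 521 of 8492 genes.

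**Figure D2:**
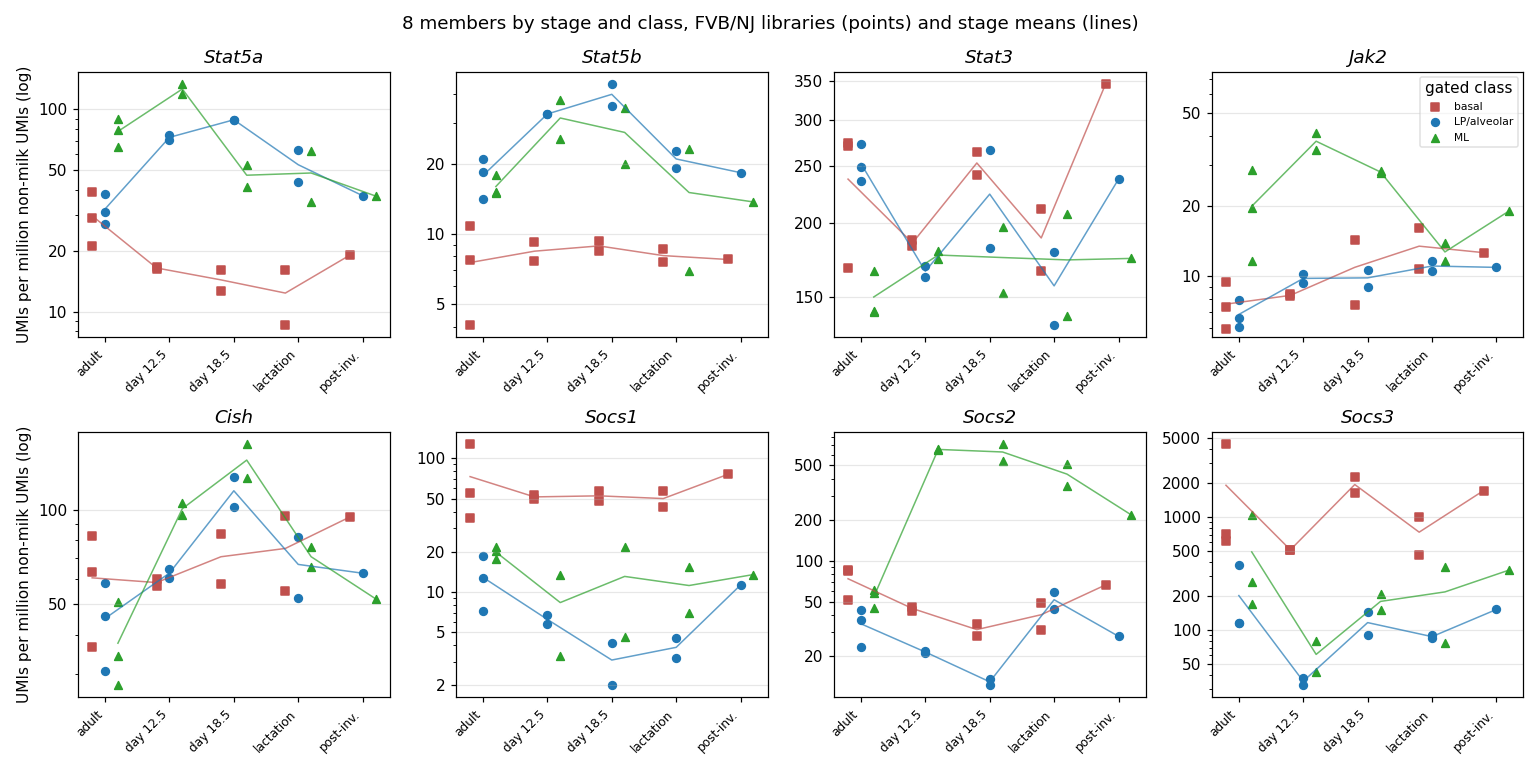
Level of each of the 8 genes (CPM, log axis) in the FVB/NJ libraries by stage, with 1 point per library and lines through stage means, for basal, LP/alveolar and ML cells. Socs2 in ML cells rises from 44.8 to 60.8 CPM in adults to 648 and 660 at day 12.5 and Stat5a in LP/alveolar cells from 27.2 to 38.2 CPM to 70.5 and 75, while their basal values do not rise.

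Whether a step differed between classes was tested in fits of the sums of 2 classes with library as a block, added after the stage values were seen. These fits share ML or basal sums with each other. Between LP/alveolar and basal cells the step from adult to day 12.5 differed for 1 of the 8 genes, against 8.17% of all genes. It was Stat5a, with a difference of 2.04 on the log2 scale (SE 0.30, adjusted p = 0.00222), called in 13 of 13 alternatives with 1.69 to 2.24. At lactation 1 differed as well, against 1.60%. This was Socs2 (1.64, SE 0.26, adjusted p = 0.0105), a call lost without F4 (1.42, adjusted p = 0.0823) or D6 (1.78, adjusted p = 0.0757) and with milk genes in the library sizes (0.44, adjusted p = 0.32). At day 18.5 none differed by edgeR, against 2.51%. DESeq2 called 1, and nothing is read from that call because the DESeq2 share over all genes is not given here. An unadjusted p under 0.05 was reached by 2, against 2931 of 14608 genes.

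Between ML and basal cells 4 genes differed in the step to day 12.5, against 7.26% of all genes. Socs2 differed by 4.28 (SE 0.31, adjusted p = 3.83e-07) and in 13 of 13 alternatives (4.15 to 4.39). Stat5a differed by 1.55 (SE 0.35, adjusted p = 0.0117), which was lost without H (1.48, adjusted p = 0.141) or G (1.61, adjusted p = 0.109). Cish differed by 1.38 (SE 0.40, adjusted p = 0.0463), a call lost in 9 of 13 alternatives, among them leaving out A10, P7, H, G, F4 or B4 (adjusted p = 0.051 to 0.327). Socs3 differed by -1.32 (SE 0.36, adjusted p = 0.035), which was lost without A10 (-1.13, adjusted p = 0.121), H (-0.90, adjusted p = 0.457), G (-1.80, adjusted p = 0.0629), F4 (adjusted p = 0.0609) or B4 (adjusted p = 0.0603). In the later steps none of the 8 differed by edgeR or DESeq2, while 0.226% and 0.137% of all genes passed. An unadjusted p under 0.05 was reached by 1 and 2 members, against 950 and 901 of 12389 genes.

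Between ML and LP/alveolar cells the step to day 12.5 differed for 2 genes, against 11.8% of all genes. They were Socs2 (4.25, SE 0.30, adjusted p = 6.35e-09) and Stat3 (0.85, SE 0.27, adjusted p = 0.0407). The Stat3 call was lost without A10 (adjusted p = 0.0596), H (0.222), G (0.355), F4 (0.0589) or B4 (0.0556) and with TMM factors (0.056), these being adjusted p-values, 6 of 13 alternatives in all. At day 18.5 Stat5a differed by -1.69 (SE 0.30, adjusted p = 0.00463), against 1.47% of all genes. That call was lost without H (-1.56, adjusted p = 0.115) or F4 (-1.54, adjusted p = 0.0736). In lactation Socs2 differed by -2.50 (SE 0.33, adjusted p = 0.000329), against 0.592%, its own steps being 2.0 in LP/alveolar and -0.53 in ML cells. With milk genes in the library sizes the median of all genes moved from -0.13 to 1.13. The size of this Socs2 difference thus depends on scaling.

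The single post-involution library, taken from a parous gland, was set against the 3 adult virgin libraries in an added fit. The fit also held the pregnancy and lactation libraries. The spread of the post-involution library could not be measured and is assumed equal to that pooled over the replicated libraries. By the study's methods this library was processed together with an FVB/NJ adult library, which is not named. No member passed by edgeR in LP/alveolar, basal or ML cells, where 0.00%, 0.00686% and 0.147% of all genes did, and 0, 0 and 1 of the 8 had an unadjusted p under 0.05. Socs2 in ML cells differed by 1.99 (SE 0.51) by edgeR, by 2.07 when P7 was left out, and by 1.95 by DESeq2.

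The remaining libraries had no replicates, and their values are a description. At E18.5 the epithelial cells, taken as 1 group of 4069, held 3.12 CPM of Stat5a (113 UMIs) and 3.64 of Stat5b, the Stat5a level being below that of every epithelial class in the later libraries. Stat3 was 136 CPM, Jak2 9.31, Cish 19.9, Socs1 13, Socs2 77.2 and Socs3 19.9. At postnatal day 5 basal, LP/alveolar and ML cells held 8.17, 19.97 and 12.6 CPM of Stat5a, and at 2.5 weeks 36.1, 36.3 and 74.5. The order of classes seen in adults, ML above both others, was thus seen in the 2.5-week library and not in that of day 5. The day 5 ML value rested on 40 UMIs in 257 cells, and 20.2% of the classed cells there lay near the score limit. The ML list summed to 2657 CPM in day 5 ML cells and 5952 at 2.5 weeks. The study describes the luminal cells of day 5 as diffuse. Whether the ML classes of these ages correspond was not tested.

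In puberty the terminal end bud and the duct were separate libraries. Basal Stat5a was 22.2 CPM in the end bud and 44.2 in the duct, and basal Socs3 235 and 727. ML Stat5a was 82.7 and 99.97. Basal Socs1 was 8.18 and 24.2 CPM. Cish was low in both in every class, at 10.3 to 24.7 CPM, where adults held 26 to 94. Socs2 in ML cells was 2.65 CPM at 2.5 weeks, 9.92 in the end bud and 11.5 in the duct, below the 39.1 to 73.0 of the adult libraries and the 36.0 of day 5. The adult SWISS and C57BL/6 libraries lay outside the FVB/NJ range for several members, such as Stat5a in ML cells (111 CPM in C57BL/6) and basal Socs3 (206 CPM in SWISS). The study's methods list the adult C57BL/6 and SWISS glands as handled together, and list no FVB/NJ adult with them. A difference of either strain from FVB/NJ thus cannot be told apart from one of handling. Among the FVB/NJ adults, P7 may also differ in library kit.

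Over the 16 libraries with all 3 classes, Socs1 was highest in basal cells in 16, and Socs3 in 15, the exception being the terminal end bud with ML cells highest. Jak2 was highest in ML cells in 14. Stat5a was highest in ML cells in 10 and in LP/alveolar cells in 6, and Stat5b in LP/alveolar cells in 11 and ML in 5. Neither STAT5 gene was thus highest in basal cells in any of these 16. Cish was highest in basal cells in 9, ML in 6 and LP/alveolar in 1. Socs2 was highest in ML cells in 8, basal in 7 and LP/alveolar in 1, and Stat3 in basal in 8, LP/alveolar in 7 and ML in 1. These tallies take no account of margins or counting error, and some margins were narrow. Stat5a was 62.7 CPM in LP/alveolar and 62.2 in ML cells of D6, and 37.4 and 37.3 after involution. Stat3 was 274 CPM in basal and 273 in LP/alveolar cells of A10.

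**Figure D3:**
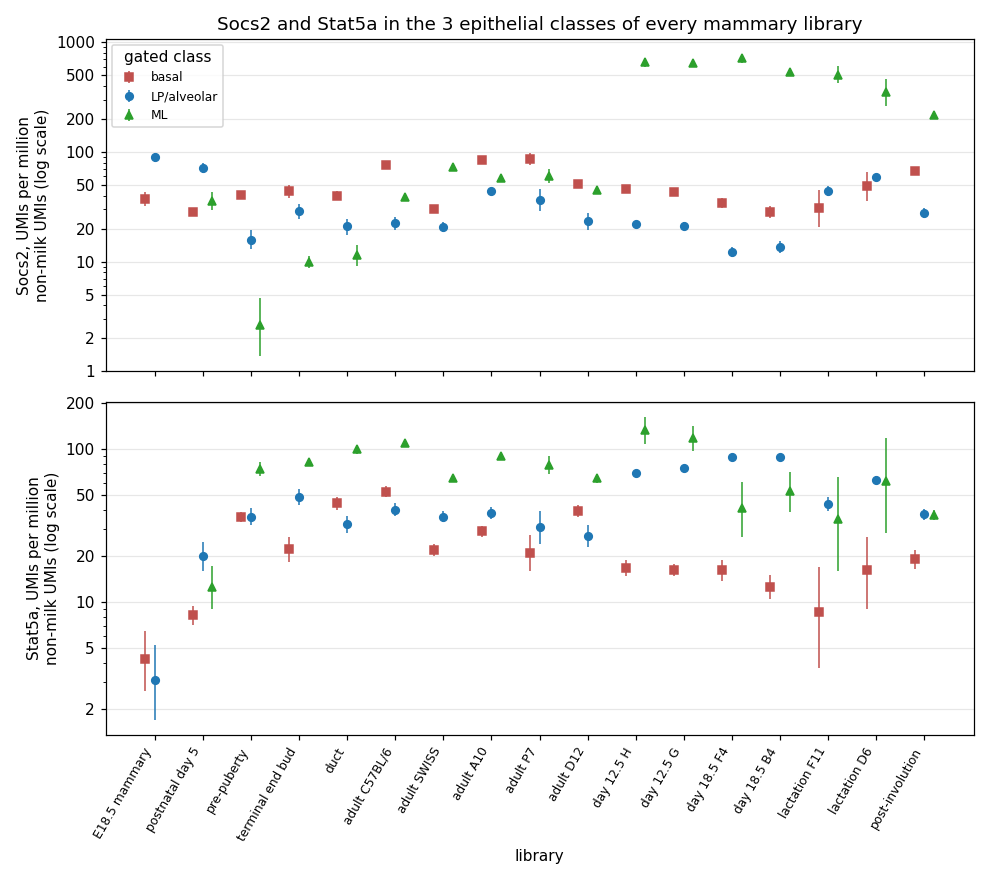
Socs2 and Stat5a levels (CPM, log axis) in basal, LP/alveolar and ML cells of all 17 mammary libraries in developmental order, with bars for the 95% exact Poisson interval, which covers counting error only. ML Socs2 runs from 2.65 CPM at 2.5 weeks to 714 at day 18.5, and Stat5a lies at 3.1 and 4.21 CPM in LP/alveolar and basal cells at E18.5.

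The last question was whether the feedback genes follow casein level among alveolar cells, since caseins and these genes are both known targets of STAT5. Alveolar cells of each of the 6 pregnancy and lactation libraries were split into 3 groups of equal size by the share of their UMIs that were caseins, and the summed casein-high and casein-low groups were compared with library as a block. None of the 8 genes passed by edgeR or DESeq2. An unadjusted p under 0.05 was reached by 1 (Jak2, -0.37, SE 0.16, adjusted p = 0.13), against 3435 of 11693 genes. Of all genes 4.29% passed as higher and 6.71% as lower in the casein-high group. With TMM factors that split was 795 against 375 genes in place of 502 against 785. The median of the 8 was 0.07, beside -0.12 over all genes tested.

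Cish was higher in the casein-high group of 4 of the 6 libraries, with 68 CPM in the low and 62.6 in the high group of H, 59.8 and 61.8 in G, 121 and 129 in F4, 77 and 134 in B4, 43.3 and 57.3 in F11, and 94.4 and 77.8 in D6. Socs3 was higher in 5 of 6 (difference 0.29, SE 0.14, adjusted p = 0.19), from 29.3 against 35.0 in H to 64.8 against 112 in B4, with F11 the exception at 109 against 81.3. Socs1, at 1.68 to 6.79 CPM in these groups, was higher in 3 of 6. Stat5a and Stat5b were higher in 3 of 6 each, and Stat3 and Jak2 in 1.

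Socs2 behaved unlike at the different stages. From the low through the middle to the high group it was 18.9, 20.3 and 24.3 CPM in H, 20.3, 19.6 and 20.5 in G, 14.9, 10.4 and 11.8 in F4, and 16.8, 11.5 and 11.4 in B4. In lactation it was 32.1, 50.5 and 54.5 in F11 and 39.6, 61.9 and 79.1 in D6. Both lactation libraries went up and both day 18.5 libraries went down. The casein difference at lactation exceeded that at day 18.5 by 1.34 on the log2 scale (SE 0.24, adjusted p = 0.00404), 1 of the 8 genes against 3.75% of all genes, in a test added after these values were seen. The call was lost by DESeq2 (1.09, adjusted p = 0.0965), without D6 (1.2, adjusted p = 0.0587) and with milk genes in the library sizes (0.77, adjusted p = 0.39). Between day 18.5 and day 12.5 none of the casein differences passed by edgeR or DESeq2, while 1.74% of all genes did. An unadjusted p under 0.05 was reached by 1 in this contrast, against 2072 of 11693 genes. Without F4 Cish passed there (0.83, adjusted p = 0.0369).

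**Figure D4:**
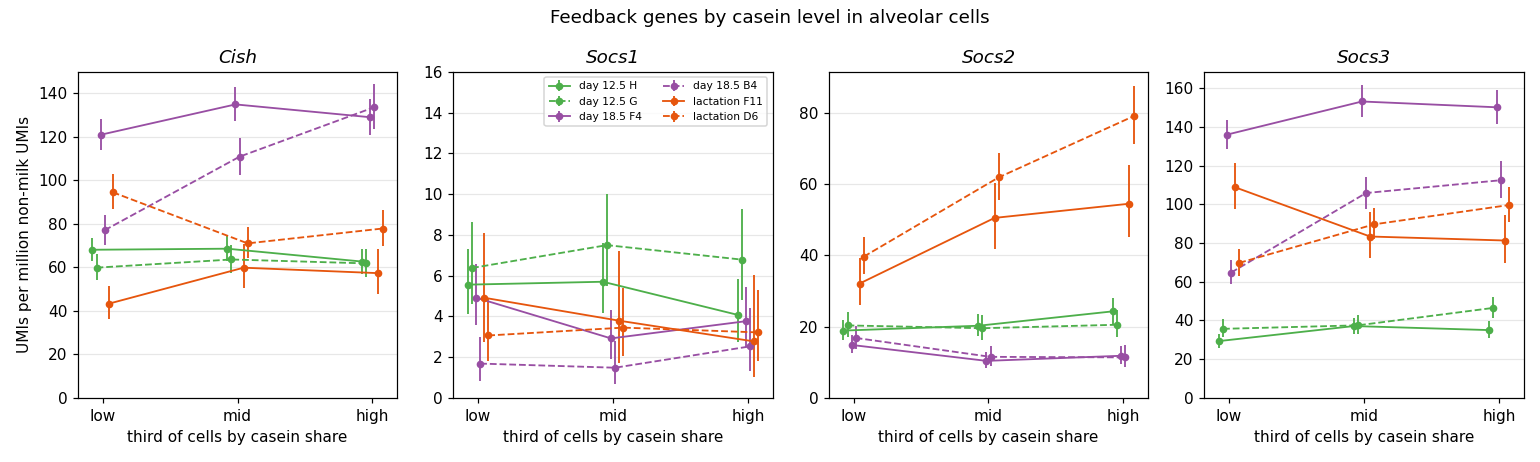
Cish, Socs1, Socs2 and Socs3 levels (CPM, linear axis from 0) in alveolar cells of the low, middle and high casein group of the 6 pregnancy and lactation libraries, with bars for the 95% exact Poisson interval. Socs2 goes up with casein in F11 (32.1 to 54.5) and D6 (39.6 to 79.1) and down in F4 (14.9 to 11.8) and B4 (16.8 to 11.4).

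Around the 8 genes, 48 other genes of cytokine signalling were read in the same fits. In LP/alveolar cells 5 of 45 tested passed between adult and day 12.5, all 5 lower, a share near the 11.5% of all genes. They were the receptor genes Il13ra1 (16.7 to 49.7 CPM in adults, 1.24 and 1.03 at day 12.5, log2 difference -4.64, adjusted p = 0.0051), Osmr (-2.95, adjusted p = 0.0153) and Prlr, the prolactin receptor (130 to 220 CPM, then 45.8 and 44.2, -2.07, adjusted p = 0.00906), Cebpd, a transcription factor gene induced by STAT3 (-2.64, adjusted p = 0.0213), and Igfbp5, an IGF-binding protein gene raised in involution (-1.87, adjusted p = 0.0404). The median over the 45 tested was -0.62, beside -0.05 over all genes tested. In the same step the dissociation list of the class went from 11193 to 28060 CPM to 4704 and 4732, and alveolar cells from 196 of 2475 in A10 to 3630 of 5082 in H. The part of either in these differences was not tested. Prlr served as a marker of the ML class, so its level in other classes is held down by the choice of cells.

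At day 18.5 Ghr, the growth hormone receptor gene, was the 1 call of 45 in LP/alveolar cells (0.408% of all genes), going from 11.7 and 11.3 CPM to 108 and 90.5 (3.1, SE 0.40, adjusted p = 0.0125), and standing at 38.3 and 36.2 in lactation. None of 45 passed between day 18.5 and lactation. In basal cells 2 of 46 passed at day 12.5, against 2.09% of all genes, Prlr lower (-3.99, adjusted p = 0.0304) and Elf5 higher (3.03, adjusted p = 0.0287). Elf5, a luminal factor gene, was at 2.57 to 2.93 CPM in adult basal cells and 23.1 and 21.3 at day 12.5, and it served as a marker of the LP/alveolar class. None of 46 passed in the later basal steps.

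In ML cells 6 of 37 passed at day 12.5 (2 higher, 4 lower), against 6.98% of all genes. Erbb4, a receptor of the EGF receptor family that can activate STAT5A, had 3, 0 and 1 UMIs in the adult ML sums and 27 and 39 at day 12.5, which is 36.1 and 43.2 CPM. It stayed at 51.4 and 46.2 CPM at day 18.5 and 19.3 and 34.5 in lactation, and was 3.66 CPM (74 UMIs) after involution. Igfbp5 rose (16.4 to 99.3 CPM, then 906 and 899, 3.82, adjusted p = 0.0047). Osmr (-2.56, adjusted p = 0.0315), the phosphatase genes Ptpn6 (-2.45, adjusted p = 0.0464) and Ptpn1 (-1.90, adjusted p = 0.047), and the cyclin gene Ccnd1 (-1.69, adjusted p = 0.0353) fell. Igfbp5 thus fell in LP/alveolar cells and rose in ML cells, a difference of 5.90 on the log2 scale between the 2 classes. None of 37 passed in the later ML steps, and against the post-involution library 1 of 39 did, Erbb4, again with no measured spread in that library.

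Between adult classes 26 of 45 list genes passed for LP/alveolar against basal cells, 35 for ML against basal and 31 for ML against LP/alveolar, where 47.0%, 60.7% and 44.5% of all genes did. The list includes Elf5 and Prlr, which served as class markers, so their class differences are no result. Of the receptor genes, Egfr was 1.01 ± 0.587 CPM in ML cells, against 28.4 ± 8.63 (basal) and 16.4 ± 4.93 (LP/alveolar, n = 5 each). Lifr, the leukaemia inhibitory factor receptor gene, was 89.3 ± 47.3 in basal against 10.6 ± 5.68 in LP/alveolar cells (-3.12), while its ligand gene Lif was 1.67 ± 1.0 against 52.9 ± 21.3 (4.92). Igfbp5 was at 85.1 ± 42.4 CPM in ML cells and 1952 ± 1226 in LP/alveolar cells (-4.48). The kinase gene Jak3 was 7.67-fold higher in LP/alveolar than in basal cells, from a low basal level (9.29 ± 7.93 against 0.983 ± 0.452 CPM). It was also 5.11-fold higher in ML than in basal cells (6.78 ± 7.24 CPM in ML). With casein level 5 of 44 passed (2 higher, 3 lower), near the share of all genes (4.29% higher and 6.71% lower). Igfbp5 (-2.56, adjusted p = 0.0034), Lif (-1.11, adjusted p = 0.0128) and the inhibitor gene Socs5 (-0.69, adjusted p = 0.0191) were lower in the casein-high group, and Lifr (0.79, adjusted p = 0.0088) and Il4ra (0.60, adjusted p = 0.0331) higher.

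Over the 30 sums of 3 classes in 10 FVB/NJ libraries, 9673 genes were ranked by how closely their log2 levels followed each member. The points share libraries, and the values are a description. Closest to Socs2 were Bmpr1b (Pearson r = 0.93), Spock1 (0.91) and Esrrb (0.91). Closest to Stat5a were Pak4 (0.86), Rab11fip4 (0.85) and Cd24a (0.84), and to Stat5b Esrp1 (0.92), AU040320 (0.89) and Scarb1 (0.87). Socs1 was closest to Actn1 (0.92), Ehd2 (0.91) and Nat14 (0.91), Socs3 to Acbd4 (0.88), Usp8 (0.87) and Fkbp10 (0.87), and Jak2 to Rev3l (0.87), Trim24 (0.87) and Adam10 (0.84). For Cish they were Rap1gds1 (0.82), Mical3 (0.78) and Tbc1d24 (0.77), and for Stat3 Zfp131 (0.79), Rlim (0.79) and Wtip (0.78). No 2 members share a gene among these.

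Outside the epithelium the members were read where a library held 20 or more cells of a class. In fibroblasts of 12 libraries Socs3 was 129 to 1474 CPM with a median of 415, and Socs1 6.0 to 324 with a median of 128, a median above every LP/alveolar and ML value. In endothelial cells of 7 libraries Socs2 was 68.9 to 241 CPM. In mural cells of 14 libraries it reached 401 CPM at day 18.5, from a median of 55.3. Stat5a was 5.4 to 41.8 CPM in fibroblasts, with a median of 14.5. The sort depleted blood and endothelial cells, so these are the cells that remained.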

How the data were processed

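Raw UMI count matrices, deposited by the authors for 18 10x 3′ libraries, were used. The study's methods name the v2 kit, but the barcodes of P7 have 14 bases where the others have 16, so its kit may differ. File headers name Cell Ranger 3.0.2 (16 libraries) and 3.1.0 (2), the processing notes mm10 and edgeR. Cells passed the study's limits on genes, counts and mitochondrial share per library, and no doublet caller was run. Cells were classed by marker scores (minimum 0.2, 1.5 times the next epithelial score, above any other class). These limits were set after viewing marker levels and class counts. Counts were summed per library and class (20 or more cells) and the 8 milk genes removed. Fits used R 4.3.3 and edgeR 4.0.16 (glmQLFit, glmQLFTest, filterByExpr) without scaling factors, with adjusted p under 0.05 as the limit. SE is the log2 difference over the root of F. Alternatives were TMM, DESeq2 1.42.0, milk genes kept in library sizes, no filter, 1000 or more genes per cell, a stricter gate, and each library left out. Fits added after the data were seen were not run with the 1000-gene limit or the stricter gate.

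The members and lists were chosen with earlier results of these data known. The genes named are the 8 members, list genes past the test (the 6 of greatest change), and the 3 most correlated genes per member. Fabp3, a gate marker, was named after its values were seen. Genes of the dissociation list were summed only. The fits were tested on simulated data first. Tests of differences between classes or stages, and the post-involution fits, were added after the data were seen. Intervals cover counting error only. Motifs were searched in RefSeq promoters with Python 3.11.15.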

Additional observations from a re-analysis of the deposited data

Results flagged for a closer look

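There were 11 differences between classes or stages that passed their own test, each fitted with library as a block and given as a log2 difference. In the step from adult to day 12.5, Stat5a differed by 2.04 between LP/alveolar and basal cells. Between ML and basal cells Socs2 differed by 4.28, Stat5a by 1.55, Cish by 1.38 and Socs3 by -1.32, and between ML and LP/alveolar cells Socs2 differed by 4.25 and Stat3 by 0.85. In the step to day 18.5, Stat5a differed by -1.69 between ML and LP/alveolar cells. In the step to lactation, Socs2 differed by 1.64 between LP/alveolar and basal cells and by -2.50 between ML and LP/alveolar cells. The difference of Socs2 between casein-high and casein-low alveolar cells was greater at lactation than at day 18.5 by 1.34. Of the 11 calls, 7 were lost in at least 1 alternative. At day 12.5, Cish against basal cells lost its call in 9 of 13 alternatives, Stat3 in 6 of 13, Socs3 in 5 of 13 and Stat5a between ML and basal cells in 2 of 13. The Stat5a difference at day 18.5 lost it in 2 of 13, Socs2 between LP/alveolar and basal cells at lactation in 3 of 13, and the casein difference of Socs2 in 3 of 10, DESeq2 among them. The other 4 differences kept their call in all 13.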

How the results depend on the processing

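The 8 members gave 216 fitted differences. Of their 2788 values under the alternatives, 2509 kept their direction and side of the threshold, 56 gained a call, 49 lost one and 174 changed sign (in 84 differences, 0 of them a call in the fit as reported). The counts of members called moved as follows. Counts over all genes moved too, so nothing particular to the 8 genes is read from the member counts. In LP/alveolar cells the stage steps gave 3 calls, 7 with milk genes in the library sizes, 5 by DESeq2, and 3 over the later 2 steps alone in alveolar cells (1 there in the whole class). In basal cells they gave 0, and 1 without the filter. In ML cells they gave 1, and 2 each with TMM, without the filter, by DESeq2 and with the stricter gate. By casein level there were 0, 6 with milk genes in the library sizes and 1 with caseins per UMI outside the milk genes. The class differences went from 2 to 6 (milk genes) and 5 (no filter) for LP/alveolar against basal and from 4 to 9 (milk genes) for ML against LP/alveolar. The casein difference between stages went from 1 to 0 with milk genes and by DESeq2, and post-involution ML cells from 0 to 1 by DESeq2. Leaving out 1 library gave 0 to 6 calls in LP/alveolar, 0 to 1 in basal and 1 to 3 in ML cells, 15 to 18 between adult classes, and 0 to 0 by casein level. It gave 1 to 3, 1 to 6 and 2 to 5 for LP/alveolar against basal, ML against basal and ML against LP/alveolar, 0 to 2 for the casein difference, and 0 to 0, 0 to 0 and 0 to 1 for post-involution LP/alveolar, basal and ML cells. The cause was not tested, except that with milk genes in the library sizes all other genes are scaled down where milk is high.

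Without the replicate block the adult class calls fell from 15 to 10 and the casein count stayed at 0. The block is the library itself, whose classes share animals. No paired analysis was possible between stages because their libraries come from different animals and share no number in the labels, replicate numbers here being given in accession order.

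Among the 77 differences that were called in some fit or are given in the text, 22 values changed sign. With milk genes in the library sizes Jak2 was -1.34 at lactation in LP/alveolar cells, Socs3 -0.086 for LP/alveolar against basal cells at lactation, Stat5a -0.11 at day 18.5 in LP/alveolar cells, and Stat5a -0.57, Stat5b -0.59, Cish -0.52, Socs2 -0.45 and Socs3 -0.38 by casein level, where the median of all genes moved from -0.12 to -0.76. Stat5b by casein was -0.054 with caseins per UMI outside the milk genes, and Stat3 was 0.030 with TMM and 0.035 by DESeq2. For LP/alveolar against basal cells at lactation Stat3 was 0.020 with TMM and 0.075 by DESeq2. When 1 library was left out, Stat5b by casein ran from -0.0084 (without F11) to 0.11. For LP/alveolar against basal cells at lactation Stat3 ran from -0.46 to 0.31 (0.27 without F4, 0.31 without D6) and Jak2 from -0.53 to 0.15 (0.15 without F4, 0.068 without F11). For ML against LP/alveolar cells at lactation Stat3 ran from -0.016 (without D6) to 0.97 and Socs3 from -0.90 (without D6) to 1.42 (-0.16 without F4). Socs2 in adult ML against basal cells ran from -0.56 (without SWISS) to 0.033 (without C57BL/6). None of these was a call in the fit as reported.

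Counts over all genes moved by more than 1.5 times in several fits. In LP/alveolar cells they went from 1517 to 2450 (DESeq2) and 2718 (no filter) at day 12.5, from 54 to 120 (TMM), 751 (DESeq2) and 1817 (alveolar cells only) at day 18.5, and from 516 to 10128 (milk genes, 9899 of them lower) at lactation. With 2 libraries a stage, a step without a call does not show that levels were equal. The ML sums of pregnancy and lactation held 144766 to 902796 UMIs, so a Socs1 level of a few CPM there rests on few UMIs.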
